A study of Mus musculus with 7 samples.

Results

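The genes described here are those encoded by the mitochondrial DNA of the mouse. They were taken as all genes on chromosome M in the annotation of build GRCm38, whose symbols begin with mt-, and they numbered 37 of the 48820 genes in the count table. Of the 37, 13 encode proteins, 2 encode ribosomal RNAs (rRNAs) and 22 encode transfer RNAs (tRNAs). RNA came from whole tibialis anterior (TA) muscle of male mice aged 7 weeks, taken 3 days after the muscle was injured by BaCl2, and was sequenced in 4 Sirt7 scKO libraries and 3 Control libraries. The genotype of the Sirt7 scKO mice was Sirt7fl/fl; Pax7-CreERT2, and that of the Control mice was WT; Pax7-CreERT2. Both groups thus carried the Cre, which tamoxifen activates and which is driven from Pax7, a gene of muscle stem cells, so that the floxed gene is removed only in those cells and their descendants while the libraries hold RNA of the whole muscle. When the Cre was activated is not given in the sources used here. In such bulk RNA, fewer cells of a type and less RNA per cell cannot be told apart.

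Mitochondrial DNA is a small circle that is transcribed from both of its strands into long RNAs spanning many genes. Most of the messenger and ribosomal RNAs in these long transcripts are separated by tRNAs, and cutting at the ends of the tRNAs (by RNase P at the 5′ end and by the nuclease Elac2 at the 3′ end) frees most of the RNAs, though not members with no tRNA between them, such as mt-Atp8 and mt-Atp6. The proteins are subunits of 4 of the complexes of oxidative phosphorylation, and the rRNAs and tRNAs serve only to translate them inside the organelle. Genes on the plus strand of the annotation are called here genes of the heavy-strand transcript, and genes on the minus strand genes of the light-strand transcript. The first held 28 genes (12 protein-coding, 2 rRNA and 14 tRNA) and the second 9 (mt-Nd6 and 8 tRNA). These names give the annotated strand only, because the kit used does not mark the strand and RNA of either strand is counted.

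The highest ratios over Control were those of tRNA genes of the heavy-strand transcript, and the top 4 of these, leaving out the scarce mt-Tv, are printed first, as RNA-sense DNA 5′ to 3′ with the anticodon in capitals. They are followed by the adjacent pair mt-Ts2 and mt-Tl2, of the same transcript, and by mt-Te, of the light-strand transcript, whose values in Control were higher on average. All positions are GRCm38.
mt-Tk, lysine tRNA, chrM:7700-7764, plus strand: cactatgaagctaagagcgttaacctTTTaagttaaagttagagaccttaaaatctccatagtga
mt-Td, aspartate tRNA, chrM:6942-7011, plus strand: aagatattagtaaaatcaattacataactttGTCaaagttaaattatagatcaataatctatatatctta
mt-Ti, isoleucine tRNA, chrM:3706-3774, plus strand: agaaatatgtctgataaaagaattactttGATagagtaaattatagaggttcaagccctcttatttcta
mt-Tg, glycine tRNA, chrM:9391-9458, plus strand: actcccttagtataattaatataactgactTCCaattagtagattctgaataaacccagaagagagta
mt-Ts2, serine tRNA, chrM:11613-11671, plus strand: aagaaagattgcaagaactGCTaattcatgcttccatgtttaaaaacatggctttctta
mt-Tl2, leucine tRNA, chrM:11671-11741, plus strand: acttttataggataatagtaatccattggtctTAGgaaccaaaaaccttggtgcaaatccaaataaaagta
mt-Te, glutamate tRNA, chrM:14071-14139, minus strand: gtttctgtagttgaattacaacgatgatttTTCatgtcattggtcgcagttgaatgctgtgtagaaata
The anticodon was found in all 22 tRNA genes as the centre of a 7-base loop closed by a 5-base stem with at least 3 pairs, and reading the amino acid in the gene's name. mt-Ts2, at 59 bases the shortest of the 22, is the serine tRNA known to lack the D arm.

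Libraries held 5425095 to 7553137 counts. The 3 deepest were Sirt7 scKO replicates 1 to 3, with 6671671 to 7553137 counts, while Sirt7 scKO replicate 4 was the shallowest of the 7. Sirt7 itself had 39.7, 34.1, 47.9 and 53.0 CPM in Sirt7 scKO replicates 1 to 4, against 46.2, 70.6 and 57.3 CPM in Control replicates 1 to 3, so the groups overlapped (log2 fold change -0.42, SE 0.162, edgeR adjusted p = 0.288). CPM are counts scaled to a library size of 1000000, with factors from the trimmed mean of M-values. Over many heavy-strand tRNA genes, Sirt7 scKO replicate 4 stood apart from the other 3 libraries of its group and lay near Control. In most light-strand tRNA genes it was instead the highest library. The test for a library far from its group, given below, flagged replicate 4 in mt-Tl2 only. The main values include replicate 4, and counts, class medians and the fold changes of the genes called are also given without it.

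The 37 genes took 2.84%, 2.34%, 2.78% and 2.78% of all counts in Sirt7 scKO replicates 1 to 4, against 2.76%, 2.34% and 2.37% in Control replicates 1 to 3. The 95% Wilson interval of the first was 2.82 to 2.85%, and like all counting intervals it covers counting error only. All 37 passed the filter on low counts and were tested among 16764 genes. With the quasi-likelihood test of edgeR and a Benjamini-Hochberg adjusted p under 0.05, 1 member, mt-Tk, was higher in Sirt7 scKO muscle, where 0.101% of all tested genes were, and 0 were lower, where 0.0298% of all tested genes were. At an unadjusted p under 0.05, 12 members were higher, against a background of 6.69% of tested genes, and 0 were lower, against 6.94%. These 12 were 9 tRNA genes of the heavy-strand transcript, mt-Rnr2, mt-Atp8 and mt-Co3. In 7 members, all of them tRNA genes of the heavy-strand transcript, all Sirt7 scKO values exceeded all Control values, as in 6.51% of tested genes, and in 0 members were all of them below Control, as in 5.71% of tested genes.

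The median log2 fold change was 0.71 over the 14 tRNA genes of the heavy-strand transcript, 12 of which were positive, and -0.03 over the 8 of the light-strand transcript, 4 of which were positive. It was 0.22 over the 2 rRNA genes and 0.12 over the 13 protein-coding genes, of which 10 were positive. All 37 members had a median of 0.14, and all 16764 tested genes one of 0.0066. The differences between classes were not tested. In the fit without Sirt7 scKO replicate 4 the medians were 0.85 over the heavy-strand tRNA genes, with 12 of 14 positive, and -0.32 over the light-strand tRNA genes, with 2 of 8 positive. They were 0.20 over the rRNA genes and 0.08 over the protein-coding genes.

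**Figure D1:**
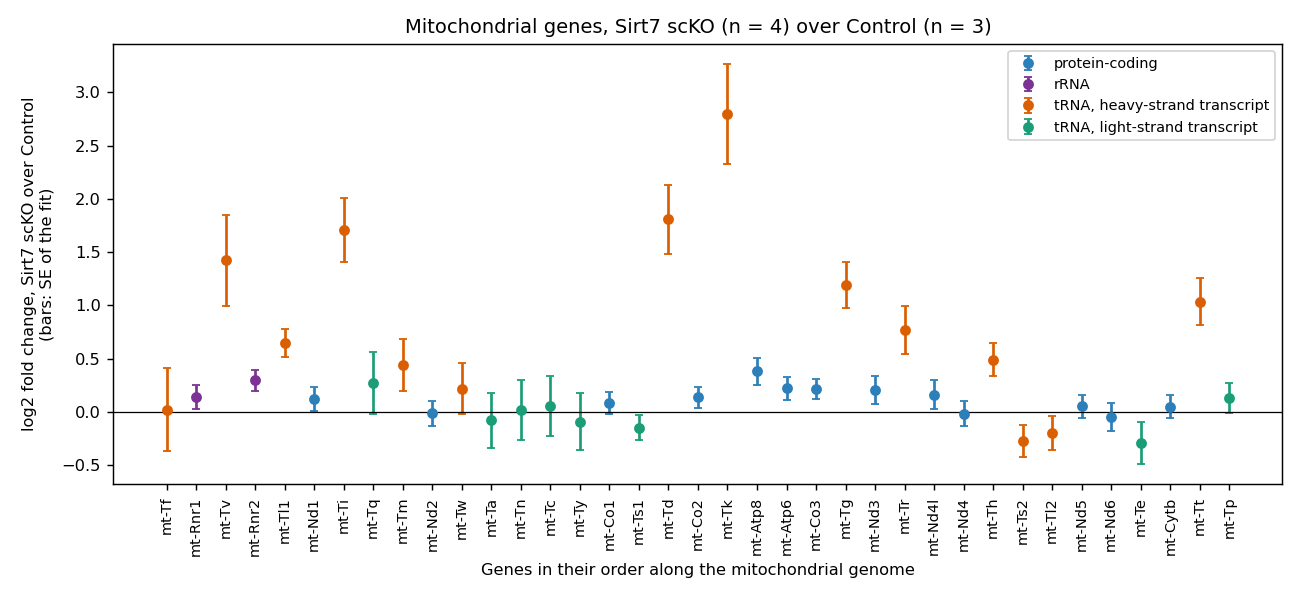
Log2 fold change of each of the 37 mitochondrial genes, Sirt7 scKO (n = 4) over Control (n = 3), with genes in their order along the mitochondrial genome and bars showing the SE of the edgeR fit. mt-Tk stands highest at 2.80, the tRNA genes of the heavy-strand transcript reach from -0.27 to 2.80, and the protein-coding genes stay between -0.05 and 0.38.

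mt-Tk encodes the lysine tRNA and lies between mt-Co2 and mt-Atp8. It had 121, 82.6, 96.6 and 19.3 CPM in Sirt7 scKO replicates 1 to 4, against 12.5, 7.90 and 14.2 CPM in Control replicates 1 to 3. Every Sirt7 scKO library was above every Control library, but replicate 4 was close to the highest Control library and far below the other 3. The gene rose to 79.7 ± 43.2 CPM in Sirt7 scKO muscle (SD, n = 4), against 11.5 ± 3.25 CPM in Control muscle (SD, n = 3), a log2 fold change of 2.80 (SE 0.471, 95% interval 1.78 to 3.81, edgeR adjusted p = 0.0430). In raw counts these libraries held 857, 631, 645 and 102 in Sirt7 scKO replicates 1 to 4 against 72, 44 and 81 in Control replicates 1 to 3. Its call was lost in 7 of 17 alternatives, namely limma voom, robust dispersion and the fits that left out any 1 of the Control libraries, Sirt7 scKO replicate 2 or Sirt7 scKO replicate 3, and its adjusted p reached 0.258, while its log2 fold change stayed between 2.53 and 3.12.

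The next 3 genes by p missed the threshold narrowly. mt-Ti, the isoleucine tRNA gene, which shares 2 bases with mt-Nd1 and 3 with mt-Tq, had 57.8, 45.1, 57.8 and 26.1 CPM in Sirt7 scKO replicates 1 to 4, against 13.03, 8.44 and 21.5 CPM in Control replicates 1 to 3 (log2 fold change 1.71, SE 0.297, edgeR adjusted p = 0.05005). mt-Td, the aspartate tRNA gene, had 71.6, 58.6, 69.3 and 25.9 CPM in Sirt7 scKO replicates 1 to 4, against 13.7, 10.8 and 24.0 CPM in Control replicates 1 to 3 (log2 fold change 1.81, SE 0.323, adjusted p = 0.0519). In both, the groups did not overlap, replicate 4 was the lowest Sirt7 scKO library, and Control replicate 3 was the highest Control library, not far below it. mt-Tg, which encodes the glycine tRNA, had 70.2, 52.7, 63.0 and 31.8 CPM in Sirt7 scKO replicates 1 to 4, against 25.5, 23.4 and 22.9 CPM in Control replicates 1 to 3 (log2 fold change 1.19, SE 0.212, adjusted p = 0.0519). Its 3 Control libraries were closely spaced, and again replicate 4 was the lowest of the Sirt7 scKO libraries.

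A further 5 tRNA genes of the heavy-strand transcript were at an unadjusted p under 0.05. mt-Tl1, the tRNA for leucine codons of the UUR type, follows mt-Rnr2 directly, and it had 73.4, 59.5, 60.5 and 46.4 CPM in Sirt7 scKO replicates 1 to 4, against 37.4, 39.2 and 38.7 CPM in Control replicates 1 to 3 (log2 fold change 0.65, SE 0.135, edgeR adjusted p = 0.0849). mt-Tt, the threonine tRNA gene after mt-Cytb, had 53.2, 41.6, 50.3 and 23.3 CPM in Sirt7 scKO replicates 1 to 4, against 19.98, 22.3 and 19.8 CPM in Control replicates 1 to 3 (log2 fold change 1.03, SE 0.223, adjusted p = 0.0997). The groups did not overlap in either gene. mt-Tv, the valine tRNA gene between the rRNA genes, was scarce, with 3.10, 2.49, 3.59 and 1.51 CPM in Sirt7 scKO replicates 1 to 4, against 0.521, 1.08 and 1.40 CPM in Control replicates 1 to 3, which are 22, 19, 24 and 8 counts against 3, 6 and 8 (log2 fold change 1.42, SE 0.429, adjusted p = 0.194). Its groups did not overlap, though the lowest Sirt7 scKO and the highest Control library had equal counts.

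The other 2 of these 5 had overlapping groups. mt-Tr, for arginine, had 29.8, 23.5, 24.1 and 13.2 CPM in Sirt7 scKO replicates 1 to 4, against 13.9, 15.1 and 11.2 CPM in Control replicates 1 to 3 (log2 fold change 0.77, SE 0.225, edgeR adjusted p = 0.184). For mt-Th, for histidine, the values were 55.4, 44.9, 53.7 and 34.6 CPM in Sirt7 scKO replicates 1 to 4, against 30.2, 38.3 and 32.8 CPM in Control replicates 1 to 3 (log2 fold change 0.49, SE 0.154, adjusted p = 0.214). In each, replicates 1 to 3 were above all Control libraries and replicate 4 was among them. In the fit without Sirt7 scKO replicate 4, which leaves 3 libraries against 3, 8 members passed the threshold and all were higher in Sirt7 scKO muscle. Calls over all genes grew as well, to 132 higher and 198 lower of 16794 (0.786% and 1.18%), against 17 and 5 of 16764 with all libraries. The 8 were mt-Tk (log2 fold change 3.11), mt-Td (2.04), mt-Ti (1.90), mt-Tg (1.37), mt-Tt (1.22), mt-Tr (0.95), mt-Tl1 (0.75) and mt-Th (0.60). Replicate 4 was singled out for its values in these same tRNA genes, so this count is a description and adds no support.

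The remaining 5 tRNA genes of the heavy-strand transcript had log2 fold changes of -0.27 to 0.44 with edgeR adjusted p of 0.459 to 0.987, and overlapping groups. They were mt-Tm, mt-Tw, mt-Tf, mt-Tl2 and mt-Ts2, for methionine, tryptophan, phenylalanine, leucine (codons of the CUN type) and serine (codons of the AGY type). The lowest was mt-Ts2, with 25.7, 24.6, 22.8 and 34.1 CPM in Sirt7 scKO replicates 1 to 4, against 31.6, 37.9 and 27.2 CPM in Control replicates 1 to 3 (log2 fold change -0.27, SE 0.153, 95% interval -0.60 to 0.06). Here, and in mt-Tl2, it was replicate 4 that was the highest Sirt7 scKO library, while replicates 1 to 3 were below every Control library. mt-Th, mt-Ts2 and mt-Tl2 lie side by side at 11546 to 11741, so neighbours in 1 cluster of the same transcript had log2 fold changes of 0.49, -0.27 and -0.20. The 9 genes at an unadjusted p under 0.05 and the other 5 had lengths of 65 to 75 against 59 to 71 bases. Their GC content was 17.1 to 44.0% (median 31.3%) against 30.9 to 44.9% (median 32.2%), and mt-Td, mt-Tr and mt-Ti, all among the 9, were below the lowest of the other 5. The part of GC content in the result was not tested.

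**Figure D2:**
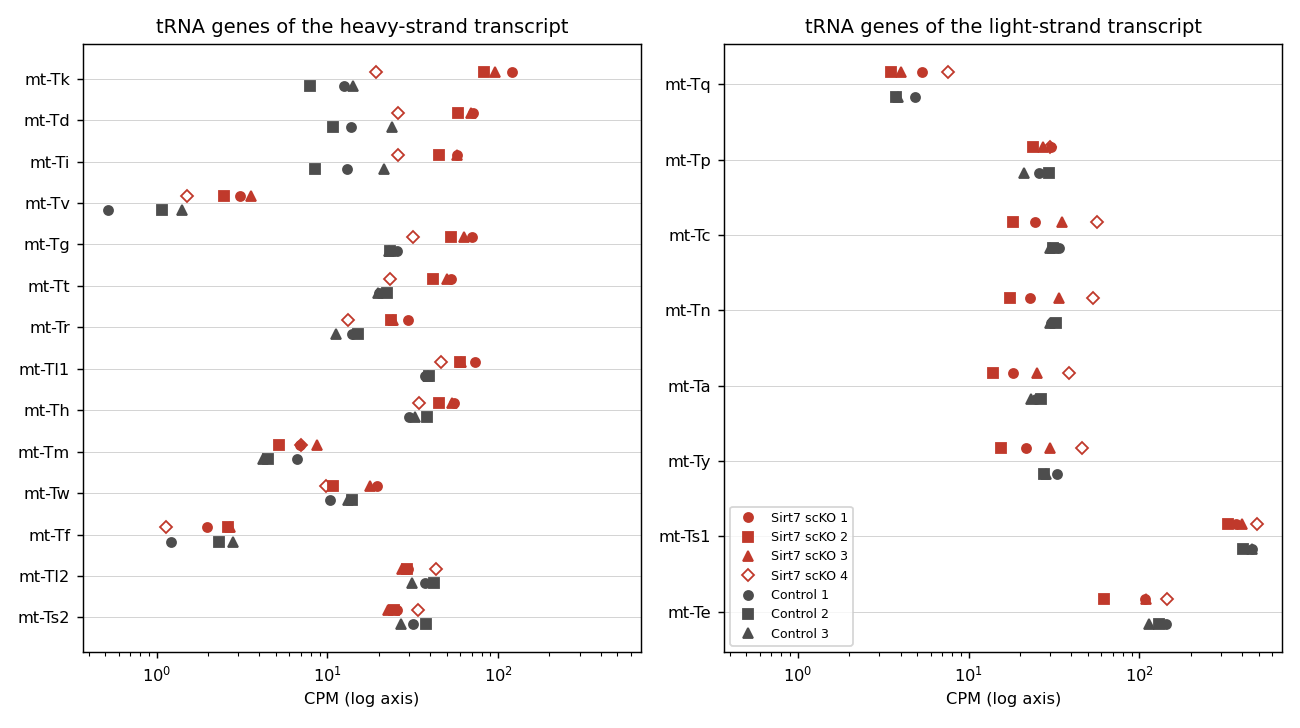
Level of each mitochondrial tRNA gene in every library, in CPM on a log axis, with Sirt7 scKO libraries in red above the Control libraries in grey and Sirt7 scKO replicate 4 as an open diamond. In mt-Tk the filled red points lie at 82.6 to 121 CPM, above replicate 4 at 19.3 CPM and Control at 7.90 to 14.2 CPM, whereas in the genes of the light-strand transcript at the right replicate 4 is the highest library in 7 of 8.

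The 8 tRNA genes of the light-strand transcript had log2 fold changes of -0.29 (mt-Te) to 0.27 (mt-Tq) and edgeR adjusted p of 0.553 to 0.984. For mt-Te, which encodes the glutamate tRNA, the values were 108, 62.3, 109 and 145 CPM in Sirt7 scKO replicates 1 to 4, against 144, 130.4 and 115 CPM in Control replicates 1 to 3. Its 3 lower Sirt7 scKO libraries were below all of Control and replicate 4 was above it. The 4 adjacent genes mt-Ta, mt-Tn, mt-Tc and mt-Ty, for alanine, asparagine, cysteine and tyrosine, all ran in the same order over the Sirt7 scKO libraries, with replicate 2 lowest and replicate 4 highest. In mt-Tn, for example, there were 22.9, 17.4, 33.7 and 53.5 CPM in Sirt7 scKO replicates 1 to 4, against 30.4, 32.3 and 30.1 CPM in Control replicates 1 to 3, so that the Sirt7 scKO libraries reached to both sides of the closely spaced Control libraries. The most abundant was mt-Ts1, the serine tRNA for UCN codons, at 397 ± 67.4 CPM in Sirt7 scKO muscle (SD, n = 4) and 439.9 ± 30.0 CPM in Control muscle (SD, n = 3). Per kilobase of gene mt-Ts1 averaged 6018 CPM over the 7 libraries, as counted more than any other member, followed by mt-Co1 at 5517 CPM. Copies of mt-Co1 in the nuclear genome held 57426 counts, against 371852 for mt-Co1. Of the 57426, 57269 were in Gm29216, which copies only part of mt-Co1. The order of mt-Ts1 and mt-Co1 thus depends on how shared reads were divided. mt-Ts1 itself lies within the stretch copied on chromosome 1, where unannotated bases were not analysed. mt-Ts1 also lies opposite the heavy-strand transcript downstream of mt-Co1, and the kit used does not mark the strand, so RNA of either strand is counted.

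Summed over their 14 genes, the tRNAs of the heavy-strand transcript had 619, 484, 558 and 317 CPM in Sirt7 scKO replicates 1 to 4, against 254, 267 and 265 CPM in Control replicates 1 to 3. The groups did not overlap, and replicate 4 lay nearer to Control than to the other Sirt7 scKO libraries. Their mean was 495 ± 130.5 CPM in Sirt7 scKO muscle (SD, n = 4) and 262 ± 7.23 CPM in Control muscle (SD, n = 3), a ratio of 1.89. The 8 tRNAs of the light-strand transcript summed to 599, 487, 663 and 866 CPM in Sirt7 scKO replicates 1 to 4, against 754, 687 and 708 CPM in Control replicates 1 to 3. Here Sirt7 scKO replicates 1 to 3 were below every Control library and replicate 4 was above. Without mt-Ts1, which holds the largest part of this sum, the other 7 genes had 232, 155, 265 and 377 CPM in Sirt7 scKO replicates 1 to 4, against 296, 282 and 251 CPM in Control replicates 1 to 3, and replicate 3 was then within the Control range. The count of heavy-strand tRNAs per count of light-strand tRNAs, which does not depend on library scaling, was 1.03, 0.994, 0.842 and 0.366 in Sirt7 scKO replicates 1 to 4, against 0.337, 0.389 and 0.375 in Control replicates 1 to 3. By this ratio replicate 4 lay inside the Control range. With mt-Ts1 left out, the ratio was 2.67, 3.13, 2.11 and 0.842 in Sirt7 scKO replicates 1 to 4, against 0.857, 0.948 and 1.056 in Control replicates 1 to 3. Replicates 1 to 3 were again above all Control libraries, and replicate 4 was then below them all. In these sums and ratios RNA of either strand is counted at each gene, so the transcripts of the 2 strands were not measured apart.

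**Figure D3:**
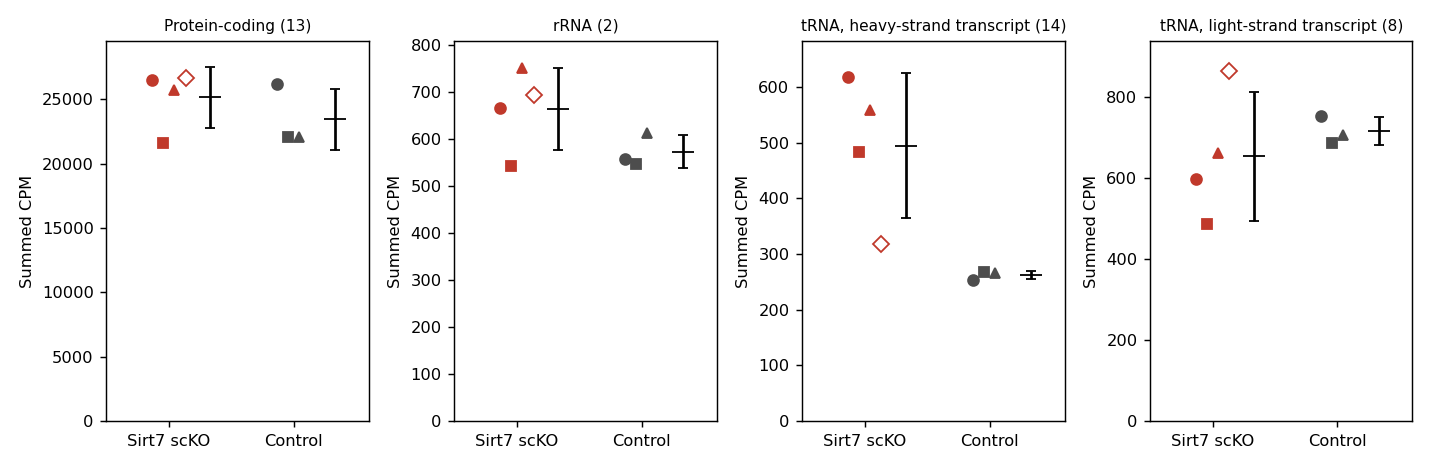
Summed CPM of the 4 classes of mitochondrial genes in each library, with the mean ± SD of each group as a black bar (Sirt7 scKO n = 4, Control n = 3) and Sirt7 scKO replicate 4 as an open diamond. In the heavy-strand tRNAs the Sirt7 scKO libraries lie at 317 to 619 CPM and the Control libraries at 254 to 267 CPM, while in the other 3 classes the groups overlap.

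The tRNA counts of each library were also set against those of the messenger RNAs in the same transcript, which again needs no scaling. Per 1000 counts of the 12 protein-coding genes of the heavy-strand transcript, its tRNAs had 23.8, 22.7, 22.1 and 12.1 counts in Sirt7 scKO replicates 1 to 4, against 9.92, 12.4 and 12.3 in Control replicates 1 to 3. Replicates 1 to 3 were above all Control libraries and replicate 4 was within their range. Against its own neighbours mt-Co2 and mt-Atp8, mt-Tk had 42.5, 35.5, 34.4 and 6.98 counts per 1000 in Sirt7 scKO replicates 1 to 4, against 4.88, 3.57 and 6.48 in Control replicates 1 to 3. For mt-Ti, between mt-Nd1 and mt-Nd2, the same measure was 15.4, 16.5, 16.8 and 7.15 in Sirt7 scKO replicates 1 to 4, against 3.64, 2.73 and 7.28 in Control replicates 1 to 3. Longer RNAs that still hold the tRNA may be counted too. How reads overlapping 2 genes were counted is not given in the sources used here. Whether the tRNA reads came from free tRNAs or from such precursors was not tested.

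**Figure D4:**
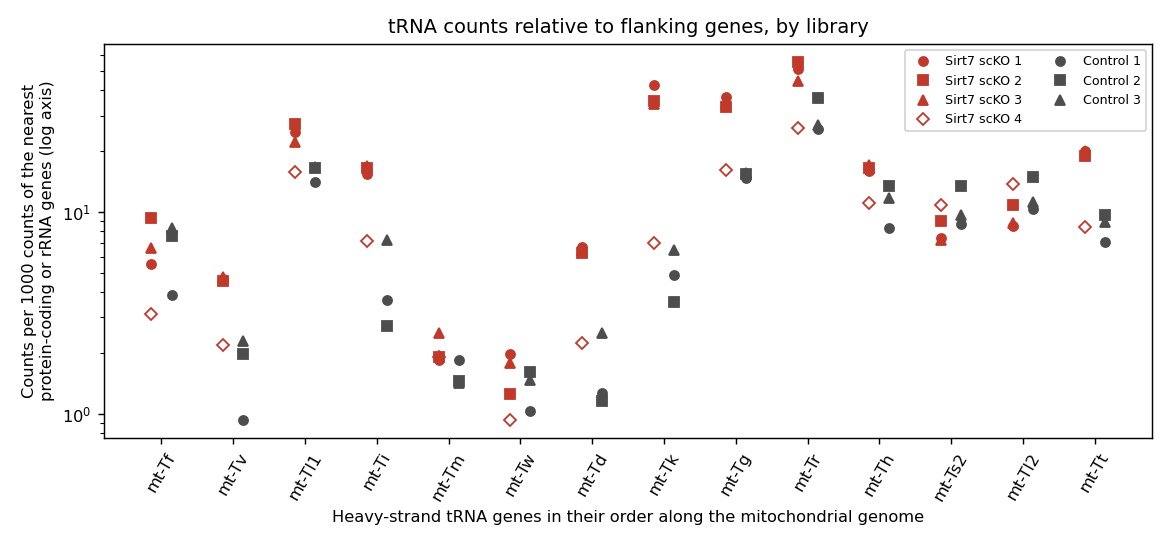
Counts of each heavy-strand tRNA gene per 1000 counts of the nearest protein-coding or rRNA genes on either side, by library on a log axis, in the order of the genes along the genome, with Sirt7 scKO libraries in red left of the Control libraries in grey. At mt-Tk the filled red points lie at 34.4 to 42.5, above replicate 4 (open diamond) at 6.98 and Control at 3.57 to 6.48, while at mt-Ts2 and mt-Tl2 the groups overlap.

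The rRNA genes encode the 12S RNA (mt-Rnr1) and 16S RNA (mt-Rnr2) of the mitochondrial ribosome. mt-Rnr1 had 357, 282, 408 and 363 CPM in Sirt7 scKO replicates 1 to 4, against 315, 306 and 337 CPM in Control replicates 1 to 3 (log2 fold change 0.14, SE 0.111, edgeR adjusted p = 0.608). mt-Rnr2 had 309, 262, 344 and 331 CPM in Sirt7 scKO replicates 1 to 4, against 244, 241 and 276 CPM in Control replicates 1 to 3 (log2 fold change 0.30, SE 0.101, adjusted p = 0.245). In both genes, 3 of the Sirt7 scKO libraries were above all of Control, and replicate 2 was not. Replicate 4, low in the tRNAs of the same transcript, was here among the higher libraries. Per kilobase, the level of mt-Rnr2 was 197 CPM in Sirt7 scKO muscle and 160.4 CPM in Control muscle, below that of every protein-coding member. These are levels in the libraries, and how far library preparation kept each class of RNA was not tested.

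The protein-coding genes differed little. Their sum was 26507, 21647, 25769 and 26685 CPM in Sirt7 scKO replicates 1 to 4, against 26175, 22065 and 22091 CPM in Control replicates 1 to 3, and the groups overlapped. By complex, the median log2 fold change was 0.05 for the 7 subunits of complex I, the NADH dehydrogenase, and 0.05 for mt-Cytb, the cytochrome b of complex III. It was 0.14 for the 3 subunits of complex IV, the cytochrome c oxidase, and 0.30 for mt-Atp6 and mt-Atp8 of complex V, the ATP synthase. None of the 13 had groups that did not overlap, and their edgeR adjusted p were 0.223 to 0.971.

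mt-Atp8 and mt-Co3 were the protein-coding genes at an unadjusted p under 0.05. mt-Atp8 had 931, 727, 961 and 731 CPM in Sirt7 scKO replicates 1 to 4, against 737, 578 and 616 CPM in Control replicates 1 to 3 (log2 fold change 0.38, SE 0.123, edgeR adjusted p = 0.223). It begins just after mt-Tk and shares 43 bases with mt-Atp6. mt-Co3 had 1686, 1437, 1625 and 1728 CPM in Sirt7 scKO replicates 1 to 4, against 1531, 1338 and 1324 CPM in Control replicates 1 to 3 (log2 fold change 0.21, SE 0.0948, adjusted p = 0.350). Sirt7 scKO replicates overlapped Control in both genes.

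mt-Nd6, a subunit of complex I, is the only protein-coding gene of the light-strand transcript. Its values were 550.0, 369, 555 and 538 CPM in Sirt7 scKO replicates 1 to 4, against 569, 492 and 497 CPM in Control replicates 1 to 3 (log2 fold change -0.05, SE 0.130, edgeR adjusted p = 0.905, 95% interval -0.33 to 0.23). Replicate 2 stood below all other libraries. mt-Co1, the catalytic subunit of complex IV, had the highest level per kilobase among the protein-coding genes, at 5654 CPM in Sirt7 scKO muscle and 5333 CPM in Control muscle. Its level in each library was 8793, 7743, 8928 and 9479 CPM in Sirt7 scKO replicates 1 to 4, against 8994, 7721 and 8003 CPM in Control replicates 1 to 3, with overlapping groups. The lowest level per kilobase, as counted, was that of mt-Nd3, another subunit of complex I, at 576 CPM in Sirt7 scKO muscle and 499 CPM in Control muscle. A copy of this gene in the nuclear genome, Gm28438, held 7108 counts over all libraries, against 8231 for mt-Nd3. The rank of mt-Nd3 thus depends on how reads matching both were divided. mt-Nd3 had 215, 154, 199 and 233 CPM in Sirt7 scKO replicates 1 to 4, against 198, 169 and 154 CPM in Control replicates 1 to 3 (log2 fold change 0.20, SE 0.130, adjusted p = 0.524). The other 8 protein-coding genes, mt-Nd1, mt-Nd2, mt-Nd4, mt-Nd4l, mt-Nd5, mt-Cytb, mt-Co2 and mt-Atp6, had log2 fold changes of -0.02 to 0.22.

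**Figure D5:**
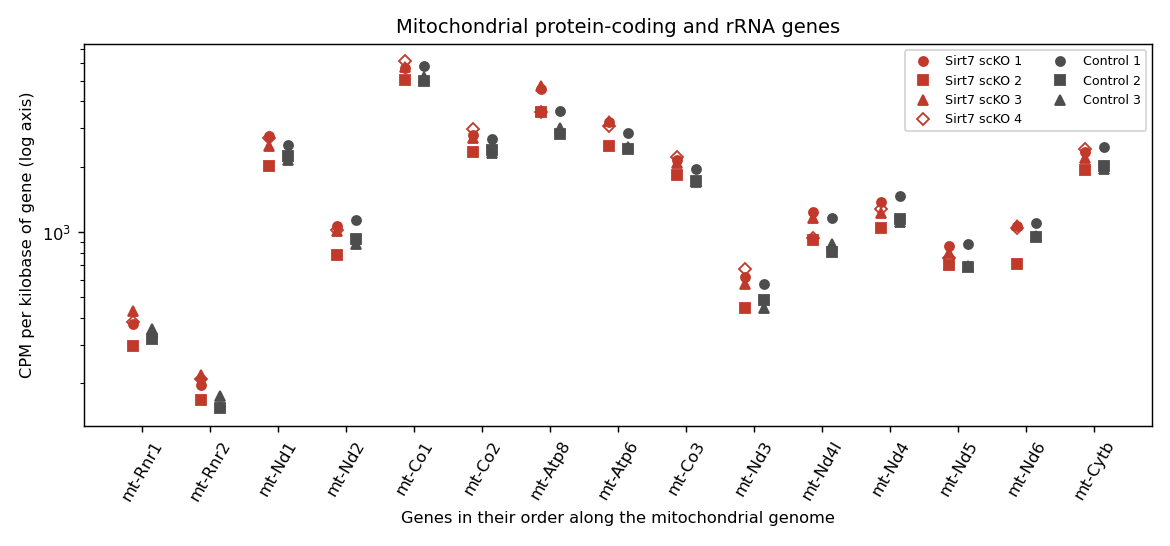
Level of the 13 protein-coding and 2 rRNA genes in each library, in CPM per kilobase of gene on a log axis, in genome order, with Sirt7 scKO libraries in red (replicate 4 as an open diamond) left of the Control libraries in grey. mt-Co1 is highest and the rRNA genes are lowest in both groups, and the groups overlap in all 15 genes.

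Levels between mt-Co1 and mt-Nd4 are uncertain, because the nuclear genome holds a near-identical copy of this stretch. It lies on chromosome 1 from 24611535 to 24616197 (GRCm38), is annotated as 7 unprocessed pseudogenes with at least 99.7% identity to the members, and received reads that could belong to either. Gm10925, an identical copy of mt-Atp6, held 84554 counts over the 7 libraries, against 84510 for mt-Atp6 itself. Gm28439, which copies only part of mt-Nd4, had 29080 counts against 74033 for the whole of mt-Nd4. Gm29216, which copies only part of mt-Co1, had 57269 against 371852 for the whole of mt-Co1. As the lengths differ, these last pairs do not show how shared reads were divided. In all, 15 annotated copies of 11 members, at 90% identity or more over at least 80% of the copy, held 335674 counts, which is 29.4% of the 1141133 counts of the members. The log2 fold change of each copy on chromosome 1 differed from that of its member by -0.02 to 0.14, and 0 of these 7 copies passed the threshold. None of the 22 tRNA genes had an annotated copy of this kind. As at least 80% of the copy had to align to the member, a tRNA copy within a longer annotated transcript would have been missed. mt-Ts1, mt-Td, mt-Tk, mt-Tg and mt-Tr lie within the copied stretch, and unannotated bases on chromosome 1 were not analysed here.

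Nuclear genes whose products act on mitochondrial DNA and RNA (6 lists), and the nuclear subunits of oxidative phosphorylation, were set beside the members, and none passed the threshold in any list. The median log2 fold change was 0.02 over 15 genes of mitochondrial DNA maintenance and 0.10 over 9 of transcription. At an unadjusted p under 0.05, where 6.69% of all tested genes were higher, 1 gene of DNA maintenance was higher and 0 of transcription were. Among 12 genes that cut the transcripts, with a median of 0.09, 1110008L16Rik, the nuclease subunit of mitochondrial RNase P, had 8.72, 9.42, 11.2 and 10.4 CPM in Sirt7 scKO replicates 1 to 4, against 8.17, 7.545 and 5.78 CPM in Control replicates 1 to 3 (log2 fold change 0.47, SE 0.189, edgeR adjusted p = 0.306). The groups did not overlap. Trmt10c, the methyltransferase subunit of the same enzyme, had a log2 fold change of 0.24 (SE 0.118, adjusted p = 0.387), and Elac2 one of 0.07 (SE 0.167, adjusted p = 0.887).

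In the other lists the medians were 0.08 over 10 genes of RNA stability and decay, -0.04 over 23 of tRNA maturation and 0.0044 over 22 aminoacyl-tRNA synthetases and related enzymes, with 1, 2 and 1 genes higher and 0, 0 and 1 lower at an unadjusted p under 0.05. The leading genes by p were Rrm2b (0.47, adjusted p = 0.193) and Ssbp1 (0.27, adjusted p = 0.586) for DNA maintenance, and Tfb2m (0.18, adjusted p = 0.693) and Mterf3 (0.14, adjusted p = 0.704) for transcription, each with its log2 fold change. They were Pde12 (0.27, adjusted p = 0.327) and Ptcd3 (0.27, adjusted p = 0.372) for stability and decay, Osgepl1 (0.49, adjusted p = 0.306) and Rpusd4 (0.30, adjusted p = 0.321) for tRNA maturation, and Sars2 (-0.48, adjusted p = 0.253) for the synthetases, all by edgeR. The nuclear subunits of oxidative phosphorylation had a median of -0.15 over 74 tested genes, 23 of them positive, with 3 higher and 11 lower at an unadjusted p under 0.05, where 6.69% and 6.94% of all tested genes were. Their leading genes were the complex I subunits Ndufs7 (-0.58, SE 0.148, adjusted p = 0.136) and Ndufa2 (-0.64, SE 0.167, adjusted p = 0.139). Ndufs7 had 37.1, 36.2, 27.8 and 49.2 CPM in Sirt7 scKO replicates 1 to 4, against 56.3, 57.1 and 54.3 CPM in Control replicates 1 to 3, so that here too replicate 4 was the Sirt7 scKO library nearest to Control.

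Some other RNAs and cell type markers also differed between the libraries, and their part in the tRNA result was not tested. Of 5 tested long RNAs that lack a poly(A) tail or stay in the nucleus, 3 were higher at an unadjusted p under 0.05. These were Rn7s1 and Rn7s2, near-identical genes of the signal recognition particle RNA between which reads cannot be assigned with certainty, and Rpph1, the RNA of nuclear RNase P. Rn7s1 had 40.5, 29.3, 13.9 and 19.7 CPM in Sirt7 scKO replicates 1 to 4, against 11.8, 8.98 and 7.53 CPM in Control replicates 1 to 3 (log2 fold change 1.46, SE 0.317, edgeR adjusted p = 0.1001). Its lowest Sirt7 scKO library was replicate 3, not replicate 4. Malat1 and Neat1, the other 2 of the 5, were more abundant, with log2 fold changes of 0.17 (SE 0.110) and 0.02 (SE 0.169). Small nucleolar RNA genes summed to 441, 478, 434 and 352 CPM in Sirt7 scKO replicates 1 to 4, against 372, 381 and 409.9 CPM in Control replicates 1 to 3, with replicates 1 to 3 above and replicate 4 below all Control libraries. Of the 96 tested, 6 were higher and 0 lower at an unadjusted p under 0.05, where 6.69% and 6.94% of all tested genes were. Replication-dependent histone genes went the other way, with a median log2 fold change of -0.44 over 10 tested, 0 higher and 4 lower. They summed to 141, 115, 119 and 177 CPM in Sirt7 scKO replicates 1 to 4, against 171, 192 and 154 CPM in Control replicates 1 to 3. Among 209 tested microRNA genes, 17 were higher and 23 lower, with a median log2 fold change of -0.03. Small nuclear RNA genes summed to 46.2 to 52.2 CPM over the Sirt7 scKO libraries and 42.9 to 53.8 CPM over the Control libraries.

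All 5 red blood cell markers were higher in Sirt7 scKO muscle at an unadjusted p under 0.05 (median log2 fold change 1.11), and their sum was 163, 134, 492 and 112 CPM in Sirt7 scKO replicates 1 to 4, against 105, 114 and 102 CPM in Control replicates 1 to 3. All 16 markers of mature muscle fibres, which are rich in mitochondria, had negative log2 fold changes (median -1.10). Of these fibre markers, 12 were lower at an unadjusted p under 0.05, where 6.94% of all tested genes were lower and 6.69% higher. Their sum reached from 816 to 4386 CPM over the Sirt7 scKO libraries and from 2532 to 6683 CPM over the Control libraries. The 6 markers of regenerating fibres had a median of -0.95, the 6 of macrophages -0.05, the 5 of fibro-adipogenic progenitors -0.20, the 4 of endothelial cells 0.06, the 4 tested of neutrophils 0.43 and the 3 tested of muscle stem cells 0.17. The neutrophil markers were split, with log2 fold changes of 1.40 for S100a9 and 1.04 for S100a8, but -0.17 for Csf3r and -0.20 for Mmp8. Their sum was 76.1 to 86.8 CPM over the Sirt7 scKO libraries and 81.1 to 87.1 CPM over the Control libraries. Ly6g, which defines neutrophils, was at 0 in all libraries. By the same unadjusted p, 4 markers of regenerating fibres, 2 of fibro-adipogenic progenitors and 1 of macrophages were lower. Likewise, 2 markers of neutrophils and 1 of muscle stem cells were higher.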

How the data were processed

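Per the labels' protocols, libraries of total RNA were prepared with a kit of the NEBNext Ultra RNA type and read on a NovaSeq instrument; this kit keeps no record of the strand. The submitters' processing notes name fastp, Bowtie2, featureCounts and GRCm38 (mm10), without versions; the rule for reads matching several places is not given in the sources used here. What the authors deposited are raw counts per gene, whole numbers in all 7 libraries. Of 48820 identifiers, 48058 matched GENCODE mouse release 21 and 762 did not. Genes were kept with filterByExpr (minimum count 10, minimum total 15), and edgeR 4.0.16 (R 4.3.3) was run with TMM scaling and its quasi-likelihood test, with Benjamini-Hochberg adjustment over 16764 genes and a threshold of 0.05. Nuclear copies were found by aligning the annotated transcripts of all nuclear genes in the count table to the members with BLAST 2.17.0.

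Alternatives were RLE, total-count and nuclear-gene scaling, other filters, robust dispersion, DESeq2 1.42.0, limma 3.58.1, copies added to members, a replicate block and leaving out each library. Named genes were all members past the threshold or at an unadjusted p under 0.05, both rRNA genes, mt-Nd6, the protein-coding genes highest and lowest per length, and the 2 leading genes of each nuclear list, of which 1 is not reported here. Members and lists were chosen with earlier results of these data known. Replicates are labelled as biological, and no pair of libraries agreed within sampling noise. The fit was checked on simulated counts.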

Additional observations from a re-analysis of the deposited data

Results flagged for a closer look

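In 3 of 42 quantities tested for it, 1 of the 4 Sirt7 scKO libraries lay far from the other 3, measured by the gap to its nearest neighbour as a share of the whole range. Chance alone gives this in about 1 of 20 groups. mt-Tl2 had 43.1 CPM in Sirt7 scKO replicate 4, while replicates 1 to 3 had 27.5 to 29.5 CPM. mt-Nd6 had 369 CPM in Sirt7 scKO replicate 2, while replicates 1, 3 and 4 had 538 to 555 CPM. The sum of all 37 mitochondrial genes was 23161 CPM in Sirt7 scKO replicate 2, while the remaining replicates had 27742 to 28562 CPM.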

How the results depend on the processing

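The number of mitochondrial genes past the threshold and higher in Sirt7 scKO muscle was 1, and it moved with most settings. It was 4 with total-count scaling, 2 with scaling from nuclear genes alone, 9 with no filter, 4 with a filter at a mean of 1 CPM, 6 with DESeq2, 0 with limma voom, and 2 with the counts of nuclear copies added. It was 1 with RLE scaling and 1 with robust dispersion, where the gene was mt-Tl1 in place of mt-Tk. Leaving out 1 library gave 0 to 8, namely 0 without Control replicate 1, 0 without Control replicate 2, 2 without Control replicate 3, 4 without Sirt7 scKO replicate 1, 0 without Sirt7 scKO replicate 2, 0 without Sirt7 scKO replicate 3 and 8 without Sirt7 scKO replicate 4. With the replicate block it was 9; deviations of same-numbered libraries had correlations of 0.123, -0.074 and 0.096, so the numbers do not pair the samples, and Sirt7 scKO replicate 4 has no partner and adds nothing to that fit. The number lower at an unadjusted p under 0.05 was 0, against 1 with no filter, 7 with the replicate block and 0 to 4 over the fits without 1 library. No member was past the threshold and lower in any setting. Calls over all genes moved widely too, from 17 higher and 5 lower to 25 and 10 with total-count scaling, 20 and 5 with scaling from nuclear genes, 209 and 376 with no filter, 24 and 7 with the CPM filter, 79 and 75 with DESeq2, 16 and 7 with limma voom, 171 and 366 with the replicate block and 132 and 198 without Sirt7 scKO replicate 4.

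Some small fold changes changed sign. On the log2 scale, mt-Tn went to -0.14 with limma voom and -0.36 with the replicate block, mt-Tc to -0.10 and -0.33, and mt-Nd4 to 0.00063 with nuclear copies added. Without 1 library the values spanned -0.26 to 0.28 for mt-Tf, -0.083 to 0.096 for mt-Nd2, -0.39 to 0.12 for mt-Ta, -0.33 to 0.23 for mt-Tn, -0.30 to 0.27 for mt-Tc, -0.41 to 0.12 for mt-Ty, -0.085 to 0.11 for mt-Nd4, -0.011 to 0.17 for mt-Nd5, -0.099 to 0.081 for mt-Nd6 and -0.013 to 0.16 for mt-Cytb. The log2 ratio of the summed heavy-strand tRNAs was 0.92, and 0.78 to 1.08 over the fits without 1 library. The cause of these changes was not tested. Members with few counts, such as mt-Tv with 3 to 24 and mt-Tf, are limited by depth.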
